A study of Saccharomyces cerevisiae with 30 samples.

Results

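The *pol1-1A* strain of *Saccharomyces cerevisiae* carries an allele of Pol1, the catalytic subunit of DNA polymerase alpha. In it a CDK phosphorylation site is changed that the FHA1 domain of the checkpoint kinase Rad53 binds. In the yeast two-hybrid assay of the paper, this change strongly weakened the binding of Rad53 and of its FHA1 domain. Release of this strain from a hydroxyurea (HU) block was followed by TrAEL-seq, and the 2 libraries of 40 minutes after release were compared with the 2 libraries of the HU block. These 4 libraries, out of 30 in the series, were chosen by the strain and the time in their labels, and the signal was described over all windows and all 16 chromosomes. The question was where 3′ DNA ends lay before and after HU was removed.

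All synchronized cells had been arrested in G1 phase with alpha factor in YPD, and were then released into YPD with 200 mM HU. The 40 min group (*pol1-1A*, n = 2) was taken 40 minutes after HU was removed and the HU block group (*pol1-1A*, n = 2) while HU was still present, with a 20 min group (*pol1-1A*, n = 2) between them. Wild type cells treated in the same way (n = 2 at each time) and asynchronous, untreated wild type cells that were spiked into each pool (n = 6) stand beside them. The pools also held 2 further synchronized mutants (n = 2 at each time), whose signal is not described here. In 1 of them *cdc45-2A* is joined with *mrc1-AQ*, and the other carries *pol1-1A* in addition. Each of 6 pools held 1 time point of 1 replicate, with 5 libraries, so that pool and time cannot be told apart within a replicate. The allele is a point mutation, which read counts in windows cannot check. The replicates are described as biological repeats, and p-values measure the spread between libraries within groups, 2 in each group. The main limma fits take in all 24 synchronized libraries, so that the spread of these further mutants enters each p-value from them. The limma fits also share spread between features of a kind (windows, origins, arms or chromosomes). Their p-values can therefore be far smaller than 2 libraries per group alone would give.

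Replication starts at origins, and at each fired origin 2 forks move apart. HU depletes deoxynucleotides, forks stall close to the early origins, and the checkpoint keeps late origins from firing. Rad53 is the effector kinase of that checkpoint, and DNA polymerase alpha makes the primers from which both new strands start. TrAEL-seq ligates an adaptor to free 3′ ends, preferentially those of the leading strand, so that a peak of reads marks where forks are found in many cells. In a population, the share of cells with a fork at a site and the number of 3′ ends per fork cannot be told apart.

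The 4 libraries held 4169831 to 5611457 mapped reads. Signal is given as RPM, reads scaled to a fixed number of mapped reads, in windows of 1 kb unless another width is named. The HU block libraries differed from each other between the forks. In windows over 30 kb from an origin the median signal was 24.4 RPM in HU block replicate 1 and 6.45 RPM in HU block replicate 2, while the wild type HU block libraries had 17.5 and 16.1 RPM. The share of reads that lay inside the deposited windows was 95.5% and 88.2% at 40 min, and 87.7% and 70.9% in the HU block. Counts of called windows, origins and chromosomes are therefore also given without each of these libraries. Spike-in libraries of the 40 min pools and of the HU block pools differed in 0 of 11768 windows (0% called; limma, adjusted p under 0.05; edgeR was not run here), with 118 windows at an unadjusted p under 0.05 and a median absolute change of 0.17 on the log2 scale. The spike-in libraries were shallower, with 631057 and 317539 mapped reads in the 40 min pools and 1260835 and 1333846 in the HU block pools. Small differences between pools could therefore be missed.

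In the mean profile the highest signal lay 16.4 to 17.6 kb from the origins at 40 min, and next to them in the HU block. Over 79 origins with 30 kb on each side, the mean profile of HU block replicates 1 and 2 had its summits 3.0 and 3.4 kb to the left of the origin, and 3.0 and 3.2 kb to the right. At 20 min the left summits lay at 6.6 and 8.4 kb and the right summits at 6.4 and 8.2 kb. At 40 min the left summits lay at 16.4 and 17.6 kb, and the right summits at 17.0 kb in both replicates. On each side the 3 times followed each other with no overlap between their libraries.

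The summits also became lower. The left summit was 6.28 and 9.97 times the mean window of its library in the HU block, 4.23 and 5.17 times at 20 min, and 2.28 and 2.58 times at 40 min. At the origin itself the signal was 0.269 and 0.415 times the mean window at 40 min, and 0.803 and 1.16 times in the HU block. The spike-in libraries, which hold cells of all cell cycle stages, had left summits of 1.12 to 1.65 times the mean window at any time.

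**Figure D1:**
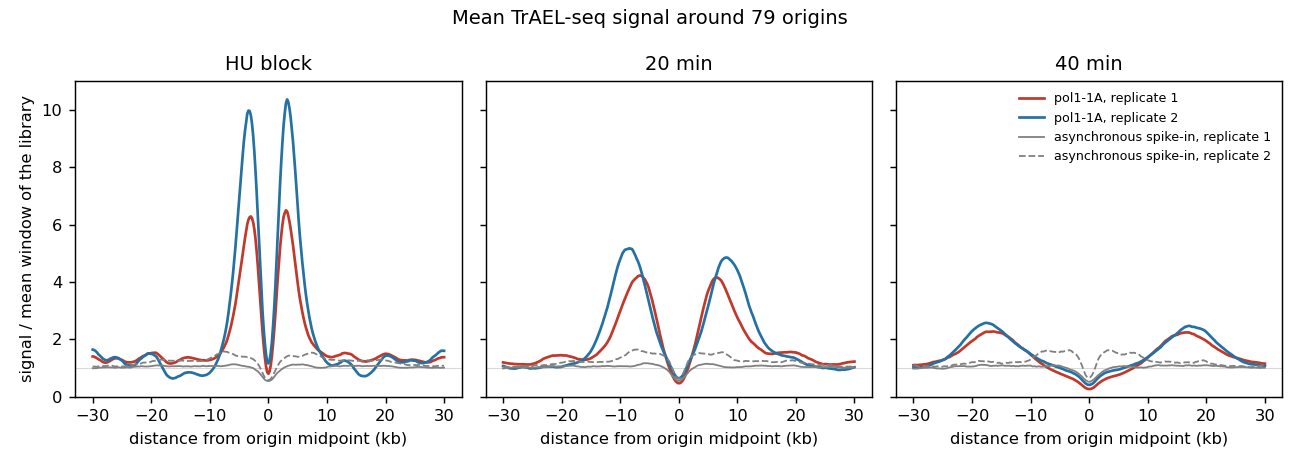
Mean TrAEL-seq signal over 79 origins against distance from the origin midpoint (kb), in units of the mean window of each library, for the HU block, 20 min and 40 min. Red and blue lines are *pol1-1A* replicates 1 and 2, and grey lines the spike-in libraries of the same pools; the paired summits lie 16.4 to 17.6 kb from the origin at 40 min and 3.0 to 3.4 kb from it in the HU block.

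Fork positions in the population were followed in 132 arms of 20 kb, each on one side of an origin. The origins were called in the 2 wild type HU block libraries (136 in all), and those with the least wild type signal were left out, so that no *pol1-1A* library chose them, although they shared their pools with *pol1-1A*. The origin just above that limit had 2733 RPM in 10 kb and the one just below it 2677 RPM. Fork position was taken as the maximum of the smoothed signal in the arm. Median fork distances were 3100 and 3400 bp in the HU block, 6700 and 8400 bp at 20 min, and 16700 and 17250 bp at 40 min. The 40 min medians lay above all others, and the HU block medians below all others.

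At 40 min the median fork distance averaged 16975 ± 389 bp, and in the HU block 3250 ± 212 bp (SD, n = 2 each). In replicate 1 the medians differed by 13600 bp, and in replicate 2 by 13850 bp. With 2 libraries against 2, the exact two-sided permutation test gave p = 0.33, the smallest it can give. Where no fork pattern is present, the highest window of an arm can lie anywhere: the same arms had medians of 14550 and 5500 bp in the spike-in libraries of the 40 min pools, and 12450 and 7700 bp in those of the HU block pools.

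Forks moved outward in every arm of these origins. In both replicates all 132 arms had their fork farther out at 40 min, and all 132 passed the test (100% called; limma, adjusted p of 0.0109 at most). With no origin left out for low wild type signal, 190 of 226 arms passed, 187 of them outward and 3 inward. Movement ran between 6300 and 17300 bp over arms, with 11410 bp at the 10th percentile, a median of 13600 bp and 15490 bp at the 90th percentile. At 40 min the fork lay 10 kb or more from the origin in 131 arms of replicate 1 and in 130 arms of replicate 2. In the HU block it lay under 5 kb away in 131 of 132 arms in each replicate. The outer end of an arm sets an upper limit, and in 10 arms the fork lay within 1 kb of it in both 40 min libraries. Facing arms can also share their highest window at 40 min. On chromosome III the origins at 39200 and 74600 lie 35400 bp apart. The arms between them had the same maximum, 571 and 522 RPM per 2 kb, at 17200 and 18200 bp from their origins. Such a window counts in both arms, and the forks of the 2 origins cannot be told apart there.

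**Figure D2:**
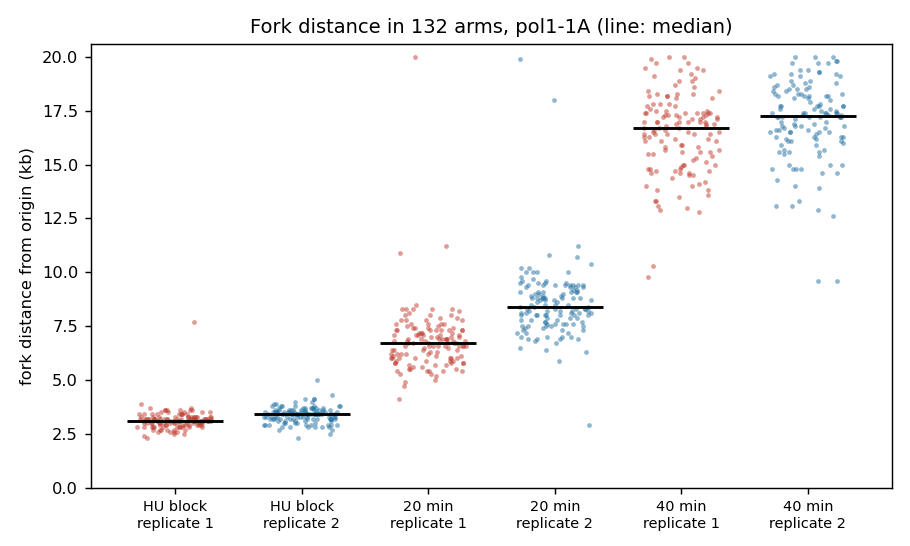
Fork distance from the origin (kb) in each of 132 arms, for both *pol1-1A* replicates in the HU block, at 20 min and at 40 min; each point is an arm and the line is the median. The 40 min points spread between 9600 and 20000 bp, and HU block points lie in a narrow band around 3100 and 3400 bp, apart from 1 arm at 7700 bp in replicate 1 and 1 at 5000 bp in replicate 2. The way origins were called favours such a band in the HU block.

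More of the distance was covered in the later interval. Between the HU block and 20 min the median fork distance grew by 180 and 250 bp per minute, and between 20 and 40 min by 500 and 443 bp per minute, so that the 2 intervals did not overlap over replicates. In single arms, 121 of 132 had the fork farther out at 20 min than in the HU block (91.7% called), and 130 farther out at 40 than at 20 min (98.5% called higher). The later step was longer than the earlier one in 99 of 132 arms (75% called higher, limma on the difference of the 2 steps, adjusted p under 0.05), and shorter in 1 (0.758%). These 3 comparisons share their 20 min or 40 min libraries.

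The one arm that ran the other way lay to the right of an origin at 435800 on chromosome IV, with the next origin 26600 bp away. Its highest window was at 3600 bp in both HU block libraries, at 20000 and 18000 bp at 20 min, and at 14000 bp in both 40 min libraries. It was named after its values were seen. The 20 min values lay at or near the outer end of the arm, on the side of the next origin.

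To the left of the origin at 215000 on chromosome IX, inside RCI37, the fork was at the outer end of 20000 bp in both 40 min libraries, against 2600 and 2800 bp in the HU block, a movement of 17300 bp (SE 259, adjusted p 8.9e-17). The other 2 arms with the largest movement were to the right of an origin between MRX12 and SAG1 on chromosome X (17100 bp) and to the right of one inside RCE1 on chromosome XIII (16400 bp). SAG1 encodes the alpha-agglutinin of mating cells, and RCE1 a protease that processes CAAX proteins such as Ras. The arm beside SAG1 pointed towards an origin 17200 bp away, and its highest signal at 40 min, at 20000 and 19800 bp, lay beyond that origin. By the median position of the signal the movement of this arm was 6506 bp.

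The smallest movement was to the left of the origin at 834600 on chromosome VII, between PEX35 and PUS6. Its fork was at 9800 and 9600 bp at 40 min, against 3200 and 3600 bp in the HU block, a movement of 6300 bp (SE 658, adjusted p 1.9e-07). The fork signal of that arm was 232 and 211 RPM per 2 kb at 40 min, against 1254 and 1435 RPM in the HU block. To the right of the same origin the fork was at 17400 and 16400 bp at 40 min, against 3200 and 3600 bp in the HU block. The fork signal on the right was 524 and 492 RPM per 2 kb at 40 min. The highest windows on the 2 sides thus lay at unequal distances, a difference that was not tested. A fork beyond the outer end of the left arm or in a filtered stretch would not be seen. In wild type the highest window on the left was also close, at 9600 and 9800 bp at 40 min. The next smallest movements were 9500 bp to the right of an origin between GLC8 and ELP6 on chromosome XIII and 9800 bp to the right of one between YEA6 and VAB2 on chromosome V. The arm on chromosome V faced an origin 28700 bp away. At 40 min it shared its maximum, 433 and 404 RPM per 2 kb, with the facing arm, so that the forks of the 2 origins cannot be told apart there.

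Over the 54 origins with both arms, the movement to the left and that to the right showed no relation (r = 0.009 across origins, a description only, in which both arms share libraries). The left minus right difference had a median of -250 bp, with quartiles of -1650 and 1050 bp, and the arms of 36 of these origins differed by under 2 kb. Left and right arms as groups were alike, with medians of 16450 and 17300 bp on the left and 16900 and 17250 bp on the right at 40 min, and 3100 and 3400 bp on both sides in the HU block. Arms that faced another origin within 30 kb moved by a median of 12600 bp (n = 11), those with one over 30 and up to 60 kb away by 13600 bp (n = 45), and the remaining 76 arms by 13750 bp.

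Between replicates, fork distances over the 132 arms correlated with r = 0.60 at 40 min and r = 0.36 in the HU block, where the interquartile range of each library was only 400 bp. The range in the HU block is also limited by the way origins were called. At 40 min the interquartile ranges were 2325 and 2100 bp.

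On chromosome X, 2 origins were called between 500 and 640 kb, where ARS1018 and ARS1019 lie, and they were 72800 bp apart. From the origin at 540300, between HIT1 and YNCJ0026W, the left fork was at 16500 bp in both 40 min libraries, against 3700 bp in both HU block libraries. Its right fork was at 14100 and 17700 bp at 40 min, against 3500 and 3700 bp in the HU block. From the origin at 613100, between JJJ3 and YJR098C, the left fork was at 17300 and 19700 bp at 40 min, against 2900 and 3300 bp in the HU block. Its right fork was at 16700 and 17300 bp at 40 min, against 2900 and 3300 bp in the HU block. All 4 forks had moved (12300 to 15400 bp, limma, adjusted p of 2.0e-08 at most), and the spread between replicates at 40 min was widest for the right fork of the first origin.

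**Figure D3:**
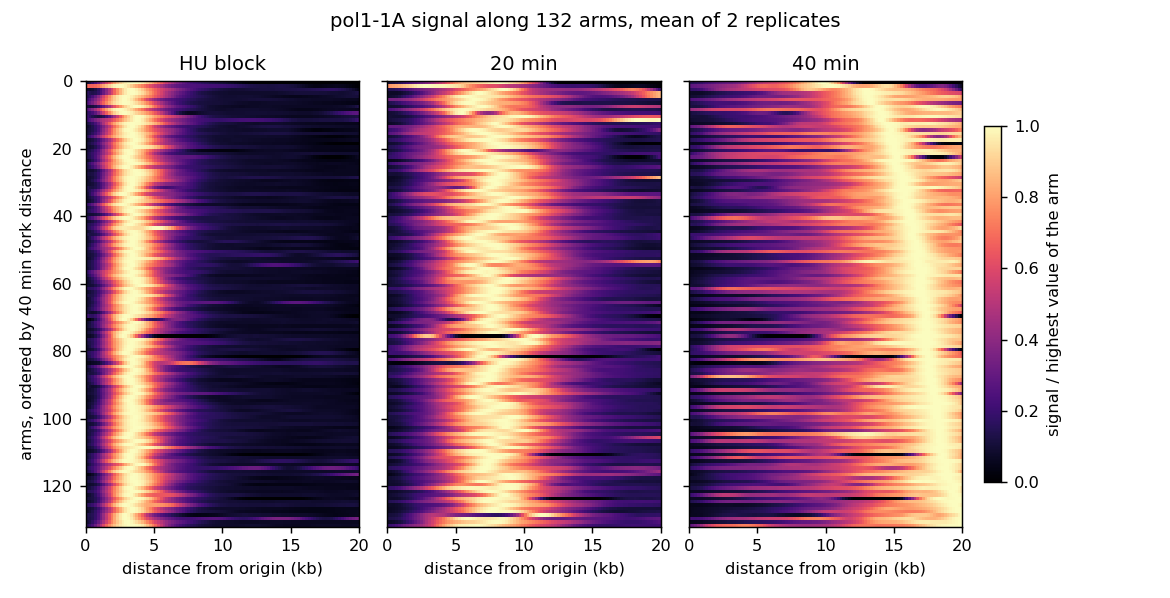
*pol1-1A* signal along 132 arms against distance from the origin (kb), as a share of the highest value of each arm at that time, mean of 2 replicates, for the HU block, 20 min and 40 min; rows are arms in the order of their 40 min fork distance. The bright band lies near 3 kb in the HU block, is wider at 20 min and reaches 10 to 20 kb at 40 min, and dark stretches inside an arm are windows at or near 0, filtered regions included.

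Peaks of forks broadened as they moved. The width of the fork peak at 50% of its height had medians over arms of 4400 and 4100 bp in the HU block, 7800 and 8200 bp at 20 min, and 10100 and 9400 bp at 40 min. The 40 min libraries averaged 9750 ± 495 bp and the HU block libraries 4250 ± 212 bp (SD, n = 2 each; exact permutation p = 0.33). In the spike-in libraries, which have no clear fork peak, the medians were 14300 to 19200 bp.

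As a share of the mapped reads, the signal at the fork became lower. The median over arms of the fork signal was 450 and 456 RPM per 2 kb at 40 min, against 931 and 1226 RPM in the HU block. It was lower at 40 min in both replicates in 131 of 132 arms. In RPM, a median of 42.5% of the HU block fork signal was found at the new fork position. Mapped reads per spike-in read rose by 1.90 and 4.23 times over the same interval. The RPM values therefore do not give the amount of 3′ ends at the forks, and a change in that amount was not tested.

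As a share of the mapped reads, little signal stayed where forks had stalled. At the position of the wild type HU block fork, the signal was 84.7 and 110 RPM per 2 kb at 40 min, against 931 and 1191 RPM in the HU block. Per arm, the 40 min signal there in RPM was a median of 9.07% of the HU block signal in replicate 1 and of 8.44% in replicate 2. These percentages depend on the scaling to mapped reads. Per spike-in read, mapped reads rose by 1.90 times in replicate 1 and 4.23 times in replicate 2. Set against the highest value of the same arm and library, it was 100% and 99.1% in the HU block, 46.6% and 33.6% at 20 min, and 21.6% and 23.9% at 40 min. No 40 min library overlapped with an HU block library (exact permutation p = 0.33). In the spike-in libraries the same measure was 70.6% to 90.2%.

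In the main fit most windows changed between the HU block and 40 min, a count that depended strongly on scaling and on the libraries fitted. Of 11768 windows, 7913 differed (67.2% called; limma, adjusted p under 0.05), 6420 of them higher (54.6%) and 1493 lower (12.7%) at 40 min, and each called window had changed the same way in both replicates. The median window changed by 1.26 on the log2(RPM + 1) scale, by 0.75 in replicate 1 and by 1.73 in replicate 2. Because RPM are shares of a library, that shift and the split of the calls depend on the scaling. Scaled to the reads inside windows, the median was 1.07. With quantile normalization it was 0.04 and the calls were 2509 higher and 2079 lower, and with the TMM scaling of edgeR on recovered reads it was -0.09 with 1452 higher and 2311 lower. When only the 4 libraries compared were fitted, 1217 windows were called, 184 higher and 1033 lower.

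The count also depended on the HU block libraries. Without HU block replicate 1 it was 10651 windows with a median change of 2.03, and without HU block replicate 2 it was 3593 windows with a median of 0.47. Without 40 min replicate 1 it was 5388. Windows that were lower at 40 min depended less on this choice, with 1513 and 1342 without HU block replicates 1 and 2. The changes of the 2 replicates correlated with r = 0.86 across windows, which are not independent, and 94.8% of windows had the same sign in both.

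The direction of change followed the distance from the nearest origin. Windows over 2 and up to 5 kb from an origin had median signals of 77.2 and 93.0 RPM at 40 min, against 315 and 411 RPM in the HU block. Of these 813 windows 678 were lower (83.4%) and 12 higher. Windows over 15 and up to 20 kb away had 160 and 165 RPM at 40 min, against 59.6 and 8.07 RPM in the HU block. Of these 987 windows 953 were higher (96.6%) and 10 lower (1.01%).

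Between these bands the calls were mixed, and beyond them they became fewer. Over 5 and up to 10 kb from an origin, 468 of 1315 windows were higher and 435 lower. Over 10 and up to 15 kb, 1086 of 1196 were higher, and over 20 and up to 30 kb 1342 of 1594. Farther than 30 kb, 2481 of 5321 windows (46.6%) were higher and 30 (0.564%) lower. Relative to the median of all windows, the median change was -3.33 over 2 and up to 5 kb and 1.42 over 15 and up to 20 kb, on the log2 scale. Replicate 1 and replicate 2 differed little close to origins (-2.04 and -2.06 over 2 and up to 5 kb) and more farther out (1.40 and 3.99 over 15 and up to 20 kb), where HU block replicate 1 had the higher signal.

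Without either HU block library the number of lower windows moved little, and that of higher windows moved more. Over 2 and up to 5 kb from an origin, 691 windows were lower without HU block replicate 1 and 629 without replicate 2. Over 15 and up to 20 kb, 960 were higher without replicate 1 and 527 without replicate 2. Without replicate 2 the higher windows became 259 of 1196 over 10 and up to 15 kb, 360 of 1594 over 20 and up to 30 kb and 900 of 5321 farther out, and without replicate 1 the last count was 4868. The share called higher was largest over 15 and up to 20 kb in all 3 fits (96.6% with both, 97.3% without replicate 1 and 53.4% without replicate 2).

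**Figure D4:**
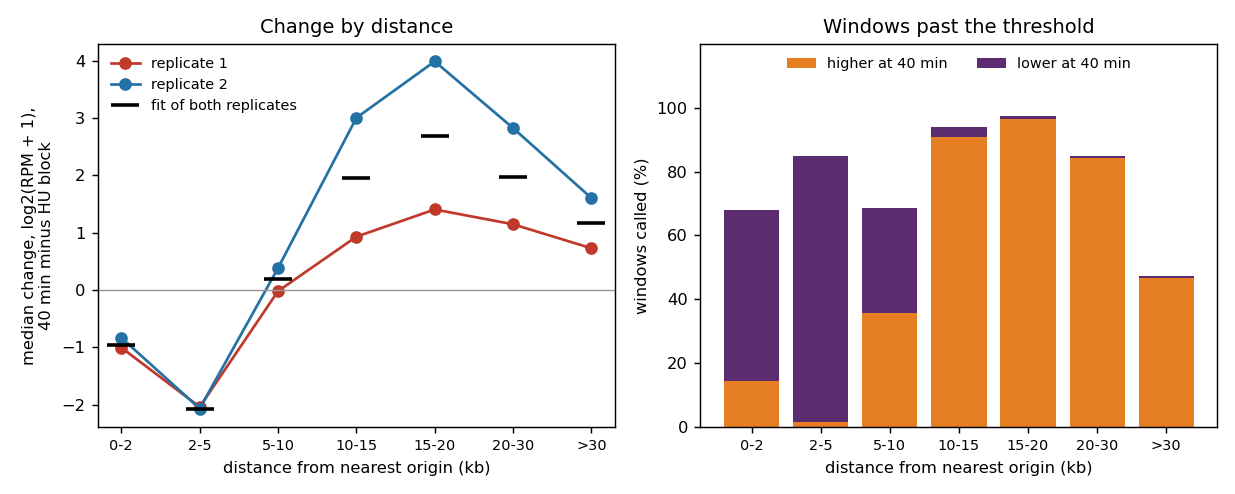
Left, median change in log2(RPM + 1), 40 min minus HU block, of 1 kb windows by distance from the nearest origin (kb), in each *pol1-1A* replicate (points joined by lines) and in the fit of both (black dashes); right, the percent of windows of each distance called higher or lower at 40 min. Lower windows make up 83.4% of those 2 to 5 kb from an origin and higher windows 96.6% of those 15 to 20 kb away.

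As shares of the reads inside windows, 38.3% and 58.8% lay within 5 kb of an origin in the HU block, 16.5% and 16.2% at 20 min, and 9.06% and 12.1% at 40 min (40 min against HU block, exact permutation p = 0.33). The spike-in libraries had 9.29% to 14.2% there, so that the 40 min libraries lay near or within the range of unsynchronized cells. Each lay below the spike-in library of its own pool, which had 9.29% in replicate 1 and 14.2% in replicate 2. Over 15 and up to 20 kb from an origin, 16.6% and 18.2% of the reads were found at 40 min, against 6.97% and 2.06% in the HU block and 8.91% to 9.61% in the spike-in libraries. Over 30 kb away the shares were 27.4% and 21.8% at 40 min, 17.3% and 8.91% in the HU block, and 38.3% to 45.0% in the spike-in libraries.

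Windows passed by the forks could be seen in the middle time point. Of 11768 windows, 3430 differed between 20 min and the HU block (29.1% called, 2315 or 19.7% higher and 1115 or 9.47% lower) and 4121 between 40 and 20 min (35% called, 2454 or 20.9% higher and 1667 or 14.2% lower). The 2315 windows higher at 20 min lay a median of 10.7 kb from an origin, and the 2454 windows higher at 40 than at 20 min a median of 23.4 kb. In 812 windows the signal was higher at 20 min than in the HU block and lower again at 40 min. They lay a median of 8.20 kb from an origin and had median signals of 105 and 78.0 RPM in the HU block, 280 and 347 RPM at 20 min, and 94.1 and 93.7 RPM at 40 min. In 245 windows the order was the opposite. The count at 20 min against the HU block was 9400 without HU block replicate 1 and 2338 without replicate 2. That at 40 against 20 min was 2322 without 40 min replicate 1, 2513 without 40 min replicate 2 and 1941 without 20 min replicate 2.

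Called windows lay in runs along the chromosomes. Windows higher at 40 min formed 646 runs with a median of 5 kb, of which 267 were 10 kb or longer, and windows lower at 40 min formed 227 runs, also with a median of 5 kb, of which 39 were 10 kb or longer. Runs of higher windows depended on the HU block libraries, with a median of 16 kb and a widest run of 203 kb without replicate 1, and 2 kb and 31 kb without replicate 2. Those of lower windows had a median of 5 kb in both cases, with widest runs of 21 and 19 kb. The widest run of higher windows covered 57 kb of the right part of chromosome XV (987001 to 1044000) and held 26 genes of the reference table, from CIN1 to YOR376W. Its mean signal was 111 and 93.9 RPM at 40 min, against 44.9 and 10.7 RPM in the HU block, with a median change of 1.88. It contained no origin, and lay between origins at 981300 and 1053900. The widest run of lower windows covered 21 kb of chromosome IX (343001 to 364000), from YIA6 to AIM21, around an origin at 357500 and next to one at 342300. Its mean signal was 44.0 and 57.6 RPM at 40 min, against 323 and 394 RPM in the HU block, with a median change of -2.92.

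The 5 windows with the largest decrease, each on another chromosome, all lay 2.6 to 3.5 kb from an origin. The largest was on chromosome IV (917001 to 918000), over parts of ADK1, the adenylate kinase, and SIR4, a component of silent chromatin. It had 735 and 1054 RPM in the HU block, 215 and 170 RPM at 20 min, and 24 and 29.6 RPM at 40 min. The change was -4.99 on the log2 scale (SE 0.21, limma, adjusted p 3.6e-13), a mean signal 33.4 times higher in the HU block. The libraries of the 3 times did not overlap, with those of 20 min in between.

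The other 4 windows had changes of -4.83 to -4.79. They overlapped SPF1 on chromosome V, which encodes an ATPase of the endoplasmic reticulum, RPC17 on chromosome X, a subunit of RNA polymerase III, ATG18 and ROG3 on chromosome VI, and IPP1 on chromosome II, the inorganic pyrophosphatase. At IPP1 the signal was 20.9 and 24.1 RPM at 40 min, against 646 and 648 RPM in the HU block. All 5 kept their direction and passed the threshold under each alternative that was run, with changes between -6.80 and -4.54.

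Of the windows with the largest increase, 4 are described, which lay 18.4 to 59.4 kb from an origin. The largest was on chromosome XIII (196001 to 197000), over the tRNA gene SUF7 and parts of YML039W and YML040W, which belong to a Ty1 retrotransposon. Ty elements were filtered by the authors, so that the reads come from what was left of the window. It had 133 and 162 RPM at 40 min, against 23.1 and 2.33 RPM in the HU block, which were 101 and 13 reads. The change was 4.05 (SE 0.67, adjusted p 5.6e-05), and on that scale the HU block libraries differed more from each other than those of replicate 1 did between the times.

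The other 3 overlapped MIA40 on chromosome XI, which encodes an oxidoreductase of the mitochondrial intermembrane space, NDD1 on chromosome XV, an activator of genes of the G2/M phase, and FLO11 on chromosome IX, a flocculin of the cell surface. At NDD1 the signal was 241 and 236 RPM at 40 min, against 66.7 and 3.05 RPM in the HU block, a change of 3.86 (SE 0.78, limma, adjusted p 4.7e-04). In each of these 4 windows HU block replicate 1 had the higher HU block signal. When only the 4 libraries compared were fitted, none of the 4 passed the threshold (adjusted p 0.0686 to 0.0889), and over the alternatives their changes ran from 1.83 to 5.89.

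Of 300 windows with a tRNA gene, which are known sites of fork pausing, 149 (49.7%) were higher and 87 (29.0%) lower at 40 min, against 54.6% and 12.7% of all windows. These windows lay closer to origins than the others, with medians of 13.1 kb against 26.1 kb. Over 10 kb from an origin, 125 of 172 tRNA windows (72.7%) were higher and 9 (5.23%) lower, against 64.4% and 0.978% of all 9098 windows there. Within 10 kb, 24 of 128 (18.8%) were higher and 78 (60.9%) lower, against 20.9% and 52.6% of all 2670 windows there. Without HU block replicate 2, 63 of the 172 over 10 kb away (36.6%) were higher, against 22.5% of all windows there, and without replicate 1 154 (89.5%), against 93.4%. The split at 10 kb did not match the distances. Over 10 kb the tRNA windows lay at a median of 29.1 kb against 36.0 kb for all windows, and within 10 kb at 3.6 kb against 4.9 kb.

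Of the 1493 lower windows 89 lay over 10 kb from an origin. Of these 66 (74.2%) were within 3 kb of one of the 304 peaks of the wild type HU block profile, against 1.71% of all windows over 10 kb from an origin. These peaks had not entered a pair that was called an origin.

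Around the origins themselves, in windows of 10 kb, the signal differed at 116 of 136 (85.3% called; limma, adjusted p under 0.05), with 112 lower at 40 min (82.4%) and 4 higher (2.94%). It was 118 without HU block replicate 1 and 117 without replicate 2. The 81 origins with the most wild type signal were all lower, with medians of 374 and 459 RPM at 40 min, against 3216 and 4083 RPM in the HU block, and a median change of -3.25. The groups were far apart. The other 55 origins had medians of 951 and 1140 RPM at 40 min, against 1361 and 1644 RPM in the HU block, with 31 lower, 4 higher and 20 not called. Across the 136 origins the change in *pol1-1A* followed the wild type HU block signal with r = -0.94, a description in which both values come from libraries of the same pools.

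The origin with the most wild type signal, at 237600 on chromosome II between ECM15 and NTH2, had 4532 and 5770 RPM in the HU block, 2030 and 1411 RPM at 20 min and 266 and 305 RPM at 40 min. Its change between the HU block and 40 min was -4.16 (SE 0.17, limma, adjusted p 5.4e-113). So small a p-value rests on spread shared over all origins, and does not measure the spread between libraries at this origin alone. At the origin at 914000 on chromosome IV, between CRF1 and the histone gene HTB1, the signal was 4296 and 5345 RPM in the HU block, 1679 and 1206 RPM at 20 min and 230 and 282 RPM at 40 min. The other 3 of the 5 strongest origins lay between VMS1 and TPI1 on chromosome IV, between JJJ3 and YJR098C on chromosome X and between GLO1 and YML003W on chromosome XIII, with changes of -4.21, -3.84 and -3.91. The 40 min libraries lay far below the 20 min libraries at all 5.

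The 4 origins that were higher at 40 min, named after their values were seen, had little signal in the HU block. At 874100 on chromosome XV, between YOR296W and TIM18, the signal was 817 and 1023 RPM in the HU block, 743 and 819 RPM at 20 min and 1349 and 1794 RPM at 40 min, a change of 0.77 (SE 0.17, limma, adjusted p 1.1e-05). At 67700 on chromosome X, between UBP12 and ELO1, it was 732 and 890 RPM in the HU block, 510 and 584 RPM at 20 min and 1060 and 1559 RPM at 40 min, a change of 0.67. The others lay between SCM3 and RGT2 on chromosome IV and between SLN1 and ATG32 on chromosome IX, with changes of 0.58 and 0.54. At both origins with values given, the 20 min libraries were below those of their own replicate at the other times. Scaled to the reads inside windows, 2 origins were called higher in place of 4. Without 40 min replicate 1 or without HU block replicate 2 it was 9, and without 40 min replicate 2 it was 2.

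The profile became flatter. The highest 5% of windows held 29.0% and 46.0% of the reads in the HU block, 22.3% and 27.4% at 20 min, and 14.0% and 15.6% at 40 min (40 min against HU block, exact permutation p = 0.33). In the spike-in libraries this share was 7.59% to 9.77%, lower than in any *pol1-1A* library. Peaks with a prominence of at least the mean window numbered 234 and 273 at 40 min, against 302 and 321 in the HU block (exact permutation p = 0.33). With a prominence of 0.5 times the mean the average number differed by 2 peaks in the opposite direction.

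The share of reads on each chromosome changed at 12 of 16 (75% called; limma, adjusted p under 0.05), at 7 upward (43.8%) and at 5 downward (31.2%). It was 13 without HU block replicate 1 and 9 without replicate 2. The 3 chromosomes with the fewest windows lost most. Chromosome I held 1.26% of the reads in both libraries at 40 min, against 1.95% and 2.43% in the HU block, a change of -0.79 on the log2 scale (SE 0.07, adjusted p 2.1e-07). It holds 1.88% of the windows, and the spike-in libraries averaged 1.44%, so that its share crossed that of unsynchronized cells.

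Chromosome III held 2.73% of the reads in both libraries at 40 min, against 3.85% and 4.40% in the HU block, a change of -0.59. Chromosome VI held 2.38% and 2.82% in the HU block, 2.67% and 2.93% at 20 min, and 1.96% and 1.97% at 40 min, a change of -0.40 between the HU block and 40 min. On both chromosomes the 40 min and HU block libraries did not overlap. Chromosome I, at 1.72% and 1.70%, was already below its HU block share at 20 min in each replicate, while chromosome VI was above it. Chromosomes X (-0.16) and IX (-0.10) also fell.

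Among the gains, chromosome XVI held 8.05% and 8.24% of the reads at 40 min, against 7.11% and 6.89% in the HU block (0.22), and chromosome XV 9.78% and 9.93%, against 8.93% and 8.68% (0.16). Chromosomes VIII (0.14), XIV (0.13), II (0.11), XI (0.09) and XIII (0.09) were also called higher. Chromosome VII, at 9.21% and 9.15% against 9.08% and 8.89%, had a change of 0.03 (adjusted p 0.0672), and chromosomes IV, V and XII had changes of -0.01, -0.04 and -0.03 that did not pass. Given as RPM per kb in place of shares, 9 chromosomes were called higher and 3 lower. The changes were 0.44 (XVI), 0.38 (XV) and 0.36 (VIII) upward, and -0.57 (I), -0.38 (III) and -0.18 (VI) downward. This scaling shifts all chromosomes alike, so that the size and sign of a change depended on it, while the order of the chromosomes from loss to gain did not. The change in share correlated with the log2 number of windows of a chromosome with r = 0.80 and with its origins per 100 kb with r = -0.41 over 16 chromosomes, as descriptions.

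**Figure D5:**
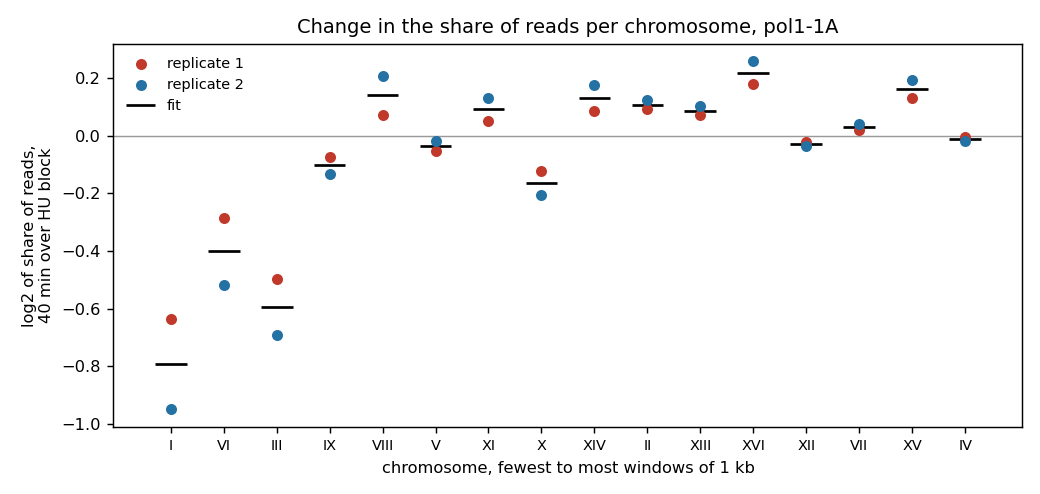
Change in the share of reads of each chromosome, log2 of 40 min over HU block, in *pol1-1A* replicates 1 and 2 (points) and in the fit (black dashes), with chromosomes in order of their number of 1 kb windows. Chromosomes I, III and VI lie lowest, at -0.79, -0.59 and -0.40, and chromosome XVI highest, at 0.22.

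Fork movement was similar on all chromosomes. The median movement per chromosome ran from 12200 bp on chromosome XI (5 arms) to 15500 bp on chromosome VI (4 arms), and chromosome I had 15000 bp in its 2 arms. The share of windows called lower ran from 8.07% on chromosome XIV to 24.9% on chromosome III, and the median window change from 1.07 on chromosome III to 1.53 on chromosome IX.

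Reads per read of the spike-in library of the same pool numbered 3.47 and 4.18 in the HU block, 2.64 and 12.9 at 20 min, and 6.61 and 17.7 at 40 min (40 min against HU block, exact permutation p = 0.33). The ratio was higher at 40 min in both replicates, by 1.90 and 4.23 times, but the replicates were far apart.

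Wild type served to ask whether this release was particular to *pol1-1A*. No window differed in its change between the strains (0 of 11768, limma, adjusted p under 0.05), with 53 at an unadjusted p under 0.05. The quasi-likelihood test of edgeR called 0 as well, with 132 at an unadjusted p under 0.05. Without *pol1-1A* HU block replicate 1 the count at an unadjusted p under 0.05 was 4431 and without replicate 2 it was 844, with 0 called by limma in both. The median SE of this difference was 0.72 on the log2 scale, so that small differences in single windows were not detectable. In wild type 6463 windows changed (54.9% called, 42.4% higher and 12.5% lower), of which 6308 were also called in the same direction in *pol1-1A*, in libraries of the same pools. These are 79.7% of the *pol1-1A* calls and 97.6% of the wild type calls.

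Fork movement differed from wild type in 0 of 132 arms (0% called; limma), with 1 at an unadjusted p under 0.05, the right arm of the origin at 834600 on chromosome VII. With wild type 40 min replicate 2 left out, 3 arms were called, and with wild type 40 min replicate 1 or *pol1-1A* 40 min replicate 1 left out, 1. The difference in movement, *pol1-1A* minus wild type, had a median of -100 bp over arms, with quartiles of -200 and 125 bp and 5th and 95th percentiles of -800 and 1845 bp. It was below 0 in 76 arms, above 0 in 48 and 0 in 8. The median SE of 995 bp per arm sets what could be seen in single arms.

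At 40 min the medians over arms were 16700 and 17250 bp in *pol1-1A* and 16400 and 17150 bp in wild type. The movement of these medians differed by 200 bp in replicate 1 and by 0 bp in replicate 2. Origin windows and chromosome shares also gave 0 calls in the difference from wild type (limma), with 0 at an unadjusted p under 0.05 in both. For these 2 measures edgeR was not run.

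Of 7 measures per library, only the width of the fork peak had changes that did not overlap between the strains. The fork peak widened by 5700 and 5300 bp in *pol1-1A* and by 6800 and 6200 bp in wild type, with widths at 40 min of 10100 and 9400 bp in *pol1-1A* and 10800 and 10200 bp in wild type. The exact permutation test gave p = 0.33 before any adjustment over the 7 measures, the smallest it can give. No difference of any size could have passed it.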

How the data were processed

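The members (4 *pol1-1A* libraries), the measures and the lists were chosen with earlier results of these data known. Per the labels, reads were trimmed with Trim Galore 0.6.5 and mapped with Bowtie2 2.4.1 to R64. The authors removed duplicates, kept 1 nucleotide per read in SeqMonk, filtered regions that are not single copy (rDNA, mitochondrial DNA, sub-telomeres, Ty elements, LTRs) and deposited signal in RPM of all mapped reads in 60303 windows of 2000 bp every 200 bp. Filtered reads still count in the total, which lowers the signal of libraries with more of them.

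From the deposited signal whole reads were recovered (100% of values within 0.01 of a whole read) and split into 1 kb windows. 11768 had a read in any of the 24 synchronized libraries. limma 3.58.1 (R 4.3.3) was fitted to log2(RPM + 1), or to bp for arms, over these 24 libraries in 12 groups, with Benjamini-Hochberg adjustment over all features and a threshold of 0.05. A fit with a trend was used for windows and origins. That scale understates changes of low signals. The fit gives each arm 1 variance for all times. edgeR 4.0.16 on recovered reads called 3763 windows. Simulated reads for the 11768 windows were used to test the fit. Single values were compared by exact two-sided permutation (scipy 1.17.1).

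Peaks (prominence of 1 times the mean, 2 kb apart) were called on the profile smoothed over 15 windows, with filtered stretches at 0. Origins were midpoints of wild type HU block peaks 4 to 9 kb apart, without the lowest 40% for arms. Arms with a second peak of 25% of the height were left out. Published origin positions and sequences were not used here. Genes come from the RefSeq table of the same assembly.

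Named are, in each direction, the 5 windows with the largest change on different chromosomes and the widest run, the 5 strongest origins, the arms on chromosome X from 500 to 640 kb, the 3 arms at each end of movement, and all chromosomes. 1 of the higher windows is not reported here. No window or arm passed in the difference from wild type. Strains of a pool are paired by the labels: deviations of *pol1-1A* and wild type in the same pool correlated with r = 0.74 at 40 min and 0.70 in the HU block. Alternatives were other scalings, pseudocounts, filters, tests, smoothing, arms and origins, blocks, and each library left out.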

Additional observations from a re-analysis of the deposited data

How the results depend on the processing

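The count of 7913 windows changed at 40 min was 4588 with quantile normalization, 3763 with edgeR (5242 and 4713 at an unadjusted p under 0.05), 1217 when only the 4 libraries were fitted (184 higher and 1033 lower), and 3593 to 10651 with 1 library left out. A replicate block across times gave 8920 windows, 132 arms, 118 origins and 12 chromosomes, with 0 differences from wild type. The labels do not pair the times, and deviations of same-numbered libraries correlated with r = 0.45. Pool as a random block gave 7781. With 1 library left out, 20 min against the HU block gave 2338 to 9400 windows and 40 against 20 min 1941 to 5089. The difference from wild type stayed at 0 windows under every setting run, among them pool as a fixed replicate block (124 at an unadjusted p under 0.05), and was 0 to 3 arms with 1 library left out. Leaving libraries out of the comparisons with 20 min, the wild type libraries left out, that block and the arms with no origin within 40 kb were chosen after seeing the data.

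The change in median fork distance of 13725 bp was 9482 bp by the median position of the signal, 14000 bp in arms of 30 kb, 13100 bp with no origin left out, and 13450 to 14000 bp with 1 library left out. Peak width changed by 3800 bp at 75% of the height (main value 5500 bp, 5150 to 5850 bp with 1 library left out). The share of reads in the highest 1% of windows changed by -6.76 percentage points and that in the highest 5% by -22.7, or by -31.2 to -14.2 with 1 library left out. Peak number changed by -58, by -136 at a prominence of 2 times the mean, by 2 at 0.5 times, and by -77.5 to -38.5 with 1 library left out.

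Among named chromosomes, RPM per kb turned the change to 0.21 (IV), 0.18 (V), 0.12 (IX), 0.054 (X) and 0.19 (XII). With 1 library left out it was -0.052 to 0.031 (IV) and -0.058 to 0.0025 (XII), and above 0 without 40 min replicate 2 (both) and without HU block replicate 1 (IV, 0.022). Chromosomes II, IX and XIV did not pass without 40 min replicate 1 or HU block replicate 2. Named arms kept their calls in all 90 refits and the 5 strongest origins in all 35. Depth limits single windows of the HU block: the named higher windows held 11 to 21 reads in replicate 2.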
